A study of Mus musculus with 12 samples.

Results

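Tumours of mouse livers that lacked both Atg7 and Hmgb1 were compared with tumours of livers that lacked Atg7 and kept Hmgb1. The comparison uses 6 of the 12 libraries of the study: the 3 tumours whose titles carry Atg7Hmgb1DKO (DKO from here on) against the 3 whose titles carry Atg7KO. Only autosomal genes are described, and of 23308 such genes in a table of 24421, 13979 had enough reads to be tested. All mice were C57BL/6 and 15 months old, and every liver, in either group, was Atg7-deficient, so no tumour with intact Atg7 enters the comparison. The labels give no sex, no batch, no promoter or Cre line and no cell type in which the genes were lost, and they do not say whether each library is a separate mouse, and p-values therefore describe only how far these libraries differ among themselves, which may be technical. Other differences between the animals run together with genotype. The other 6 libraries, 3 of non-tumour liver from each genotype, served as a second tissue in which the same genotype difference could be read.

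Atg7 is the enzyme that activates the ubiquitin-like proteins needed to build autophagosomes. Without it, liver cells accumulate the adaptor p62 (Sqstm1), keep the antioxidant factor NRF2 switched on, and livers form tumours with age. Hmgb1 is an abundant nuclear protein that bends DNA and that, once released from a cell, acts as a danger signal through receptors such as Ager and Tlr4.

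The 6 tumour libraries held 25010527 to 32354958 counted reads, and their gene levels correlated with Spearman coefficients of 0.901 to 0.978. Levels below are CPM, that is read numbers divided by TMM-adjusted library sizes, always given in the order of tumours 1, 2 and 3, and differences are log2 fold changes, DKO over Atg7KO, with their SE from edgeR. A gene was called when the edgeR quasi-likelihood test gave an adjusted p (Benjamini-Hochberg over all genes tested) under 0.05. Features of the libraries move with genotype. Reads of 4 Y-linked genes (Ddx3y, Eif2s3y, Kdm5d and Uty) numbered 0, 0 and 2 in the Atg7KO tumours and 4393, 3969 and 3571 in the DKO tumours, while Xist, the transcript that silences an X chromosome, had 1776, 1130 and 2863 reads against 0, 0 and 0. Genotype and the sex these transcripts mark therefore cannot be told apart. Reads in the DKO tumours also lay on longer genes: the mean gene length weighted by reads was 2661, 2789 and 2802 bases in the Atg7KO tumours and 3187, 3013 and 2922 in the DKO tumours.

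Hmgb1 reads were lower in the DKO tumours but were not absent. Hmgb1 (mm10 chromosome 5, 149047227 to 149053037, minus strand) stood at 136, 95.8 and 112 CPM in the Atg7KO tumours and at 91.5, 60.5 and 84.9 CPM in the DKO tumours. The 2 groups did not overlap, but the log2 fold change of -0.54 ± 0.21 (SE, n = 3 and 3) did not pass the edgeR test (adjusted p = 0.253). Atg7 (chromosome 6, 114643097 to 114860614, plus strand) stood at 5.29, 3.10 and 8.29 CPM against 4.40, 10.8 and 5.66 CPM, and its groups overlapped, with a log2 fold change of 0.32 ± 0.43. Which part of either gene was deleted is not given in the sources used here, so reads from outside that part check nothing.

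Socs2 was higher and Bglap3 lower in DKO than in Atg7KO tumours. These were the only autosomal genes that edgeR called, 1 higher (0.00715% of those tested) and 1 lower (0.00715%). Without the adjustment, 1147 genes were higher (8.21%) and 1166 lower (8.34%) at a p under 0.05. Genes whose 3 DKO values all lay above or all below the 3 Atg7KO values numbered 1363 higher (9.75%) and 1463 lower (10.5%). DESeq2 called 250 higher (1.71%) and 268 lower (1.83%), whereas limma's voom method, with a quality weight per library, called 10 (0.0715%) and 20 (0.143%). All 30 voom calls were also DESeq2 calls. The count rested on single libraries: without DKO tumour 3, edgeR called 14 genes higher and 11 lower, and without any 1 of the other 11 libraries it called 1 to 5 higher and 0 to 6 lower. With 3 libraries against 3, an exact permutation test of a single gene cannot go below p = 0.1.

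Socs2, which encodes a feedback inhibitor of growth hormone receptor signalling and is itself a STAT5 target, was called in every alternative fit as well. It stood at 7.25, 5.28 and 4.85 CPM in the Atg7KO tumours and at 27.3, 28.3 and 33.5 CPM in the DKO tumours, with a wide gap between the groups. The log2 fold change was 2.36 ± 0.24 (edgeR adjusted p = 0.00161). Socs2 lies on chromosome 10 at 95411490 to 95416857, minus strand. The same difference was present in non-tumour liver, at 2.15 ± 0.23, and the test of the difference between the tissues did not pass (edgeR adjusted p = 0.775). Growth hormone reaches the liver in a sex-dependent pattern in mice, and here sex and genotype cannot be told apart.

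Bglap3, an osteocalcin-like gene, was the other call. It stood at 8.61, 20.4 and 5.26 CPM in the Atg7KO tumours and at 0, 0.0347 and 0.0313 CPM in the DKO tumours, that is 935 reads in the first group and 2 in the second. The ratio of read rates was 550 with a 95% exact interval of 152 to 4548, which covers counting error only. The log2 fold change was -8.80 ± 1.19 (edgeR adjusted p = 0.0201). In non-tumour liver Bglap3 differed by 0.49 ± 0.93 and its libraries overlapped. It stood near the floor there, at 0.201, 0.357 and 0.101 CPM in Atg7KO and 0.127, 0 and 0.696 CPM in DKO liver. A fall could therefore not show in that tissue. Only the Atg7KO tumours stood clearly above these levels. Its neighbours Bglap and Bglap2 are close paralogues and had 1 read and 0 reads over the 6 tumours, so how reads were shared among the 3 genes (chromosome 3, 88368616 to 88372741 for Bglap3, minus strand) is uncertain. The edgeR call was lost without DKO tumour 1 (adjusted p = 0.0706) or DKO tumour 2 (adjusted p = 0.0769). It was also lost when the numbers were used as a block (0.0701), and with that block plus an offset for gene length (0.0940). Leaving X and Y genes out of the fit lost it too (0.0681).

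Because edgeR called so few genes, the genes named next, 9 in each direction, were called by DESeq2 and, except for Sema3e and Sema3c, by limma voom, and none passed the edgeR test. Among genes with higher levels, several encode secreted or membrane proteins. Sema3e, a secreted guidance ligand for plexin D1, stood at 0.128, 0.423 and 0.103 CPM against 35.1, 5.10 and 4.47 CPM (log2 fold change 6.05 ± 0.96, edgeR adjusted p = 0.0527). DKO tumour 1 was far above DKO tumours 2 and 3. Sema3c, a related ligand, stood at 1.11, 0.740 and 0.791 against 7.77, 5.82 and 9.50 CPM (3.13 ± 0.50). Sftpd, the collectin surfactant protein D, stood at 3.16, 2.68 and 3.03 against 16.6, 73.8 and 40.9 CPM (3.89 ± 0.61, adjusted p = 0.0503). For these 3 genes, as for all 9 in each direction, no overlap between the groups was a condition of naming and is no further result.

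Pam, an enzyme that amidates peptide hormones, stood at 27.2, 33.1 and 27.4 against 86.2, 67.4 and 58.7 CPM. Ptgfrn, a tetraspanin partner at the cell surface, stood at 3.71, 11.2 and 5.16 against 38.4, 22.3 and 25.4 CPM. Prkdc, the catalytic subunit of the DNA-dependent protein kinase, stood at 5.88, 5.85 and 4.68 against 8.47, 12.2 and 11.6 CPM. These differences were smaller, 1.28 ± 0.23, 2.10 ± 0.45 and 0.97 ± 0.23 on the log2 scale, and the groups were again separate by the naming rule. Vkorc1l1, a vitamin K cycle enzyme, and Anapc7, a subunit of the anaphase-promoting complex, differed by 0.94 ± 0.17 and 0.71 ± 0.16, and both were also higher without overlap in non-tumour liver.

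Among genes with lower levels were genes of the cytoskeleton, of innate defence and of the respiratory chain. Espn, which bundles actin filaments, stood at 18.2, 45.3 and 19.98 CPM against 0.116, 1.46 and 1.38 CPM (log2 fold change -4.83 ± 0.73, edgeR adjusted p = 0.0503). Synm, the intermediate filament protein synemin, stood at 18.6, 14.0 and 20.7 against 0.699, 2.63 and 2.16 CPM (-3.28 ± 0.51). Defb1, a beta-defensin antimicrobial peptide, stood at 59.0, 53.7 and 66.0 against 6.40, 6.38 and 7.47 CPM (-3.14 ± 0.53). The 3 genes were low in every DKO tumour, and Espn and Synm were lowest in tumour 1. H2-T10, a non-classical class I histocompatibility gene with close relatives that can share its reads, stood at 17.1, 13.9 and 26.8 against 5.21, 5.65 and 7.72 CPM.

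Atp6v0e2, a subunit of the proton pump of lysosomes, stood at 7.08, 9.72 and 8.12 against 2.04, 1.46 and 2.06 CPM. Kctd17, a cullin ubiquitin ligase adaptor, stood at 26.7, 35.1 and 20.3 against 7.10, 8.35 and 6.32 CPM. Cnnm4, a magnesium transporter, stood at 12.1, 12.3 and 12.2 against 6.61, 5.65 and 5.57 CPM. Its difference was the same size in the other tissue, -1.04 ± 0.19 in tumours and -0.998 ± 0.19 in non-tumour liver.

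**Figure D1:**
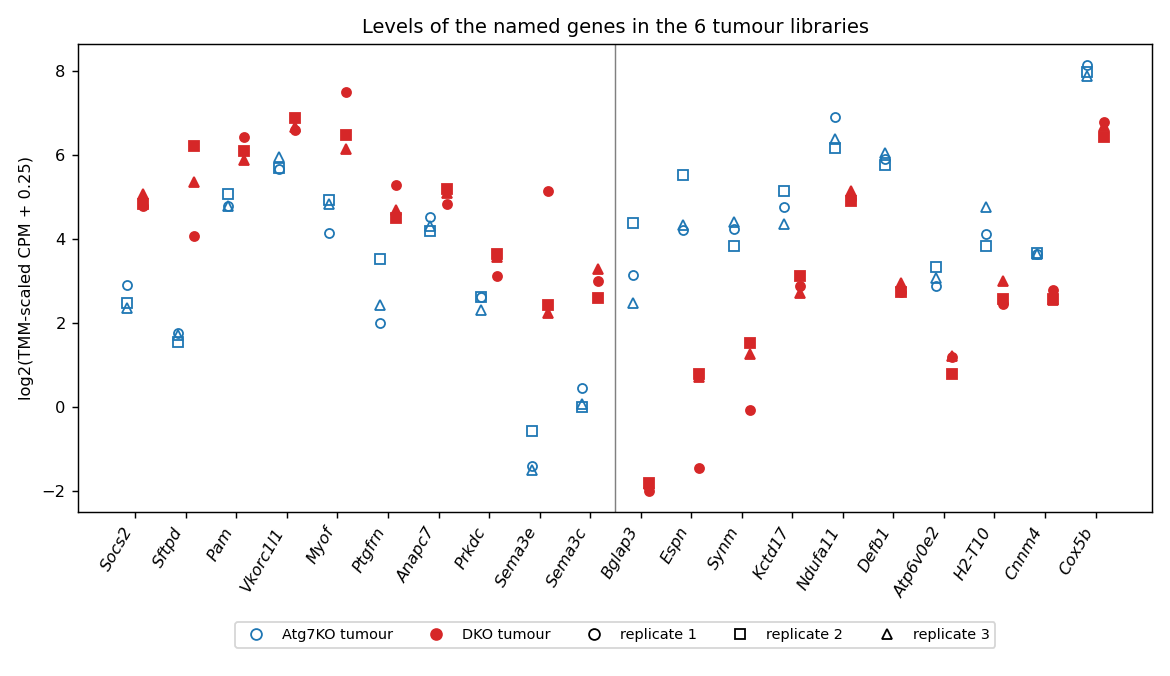
Level of each of the 20 named genes, as log2 of TMM-scaled CPM plus 0.25, in the 3 Atg7KO tumours (open blue) and the 3 DKO tumours (filled red), with the marker shape giving the replicate; genes left of the line were higher in DKO tumours and genes right of it lower. Groups of every gene are separate by the naming rule, and the 3 Bglap3 values of DKO tumours lie at or beside 0 CPM.

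The named genes were then read in non-tumour liver. Of the 10 genes named as higher, 3 were also higher without overlap in non-tumour liver (Socs2, Vkorc1l1 and Anapc7), and of the 10 named as lower, 3 were also lower (Espn, Kctd17 and Cnnm4). The background for such a gene was 11.7% higher and 12.2% lower. The test of the difference between the tissues called 0 genes in edgeR (lowest adjusted p = 0.175), with 1303 above 0 (9.32%) and 1201 below (8.59%) at an unadjusted p under 0.05. In that test limma voom called 0, and DESeq2 called 190 above 0 (1.84%) and 211 below (2.05%). Thus no gene was shown by edgeR to differ in its genotype effect between tumour and non-tumour liver. The 5 genes with the lowest p in that test were Bglap3, Akap9, Mycn, Gcn1l1 and Atp6v1g1. Akap9, a scaffold of the Golgi and centrosome, had log2 fold changes of 1.27 ± 0.23 in tumours and -0.52 in non-tumour liver. Mycn, a MYC family transcription factor, had 1.40 ± 0.52 and -2.73, Gcn1l1, an activator of the amino acid sensor kinase, had 1.13 ± 0.25 and -0.80, and Atp6v1g1, a proton pump subunit, had -0.59 ± 0.19 and 0.83. Akap9, Mycn, Gcn1l1 and Atp6v1g1 had opposite signs in the tissues, which choosing genes by that p favours. Mycn had few reads in the tumours, 5, 5 and 15 against 29, 33 and 14, and its groups overlapped there.

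**Figure D2:**
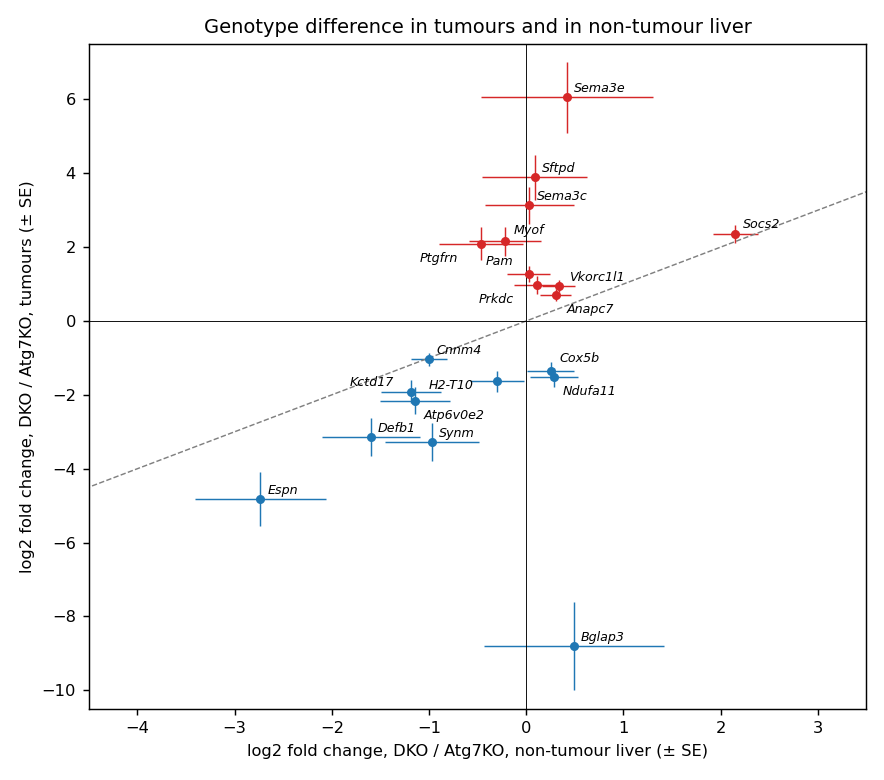
Log2 fold change between DKO and Atg7KO in tumours (vertical axis) against that in non-tumour liver (horizontal axis) for the 20 named genes, with SE bars from edgeR and a dashed line where both are equal. Socs2 and Cnnm4 lie near the line, while Bglap3, Sema3e and Sftpd lie far from it.

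The pathway results are read against the gene length shift. Over all 13979 genes the log2 fold change correlated with gene length (Spearman coefficient 0.358, a description across genes that share libraries). Median log2 fold changes from the shortest to the longest quartile of genes were -0.26, -0.07, 0.06 and 0.27. Genes lower without overlap made up 19.99% of the shortest quartile, and genes higher without overlap made up 19.4% of the longest. In non-tumour liver the correlation had the opposite sign, -0.477. List medians below are therefore followed by the median from a fit with an offset that removes this trend from every library (gene length offset), and the part of RNA quality in the trend was not tested.

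Genes of cell division were lower as a group. All 30 tested G2/M genes had log2 fold changes below 0 (50.1% of all genes did), with a median of -0.78 against -0.00 over all genes, and 19 of 30 were lower without overlap (63.3%, background 10.5%). None passed edgeR, and DESeq2 called 2 of the 30 lower (1.83% of all genes), Ube2c and Cdc20. These encode the ubiquitin-conjugating enzyme and the activator of the anaphase-promoting complex. Ube2c stood at 18.3, 18.8 and 16.3 CPM against 7.71, 6.03 and 9.22 CPM (log2 fold change -1.22 ± 0.36). Cdc20 stood at 20.4, 20.9 and 16.9 against 4.86, 4.75 and 11.5 CPM (-1.46 ± 0.46). The mitotic kinase Plk1 stood at 17.3, 14.4 and 12.9 against 6.84, 3.12 and 9.22 CPM, whereas the proliferation marker Mki67 overlapped, at 44.8, 32.6 and 42.9 against 39.5, 31.5 and 35.0 CPM. The list median was -0.86 with the length offset, -0.58 without DKO tumour 2 and -1.03 without DKO tumour 3. It was -0.79 in non-tumour liver, the same direction as in tumours. Of 29 S phase genes 12 were lower without overlap (41.4%, background 10.5%), with a median of -0.35 (-0.25 with the length offset).

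G2/M promoters are known to carry a cell cycle homology region (letters TTTGAA) that binds the DREAM repressor complex and a MYB-MuvB activator complex, and CCAAT boxes that bind NF-Y. Within 250 bases before and 50 after the start site, on either strand, TTTGAA was found in 19 of the 25 G2/M genes with a RefSeq promoter (76.0%) and in 17.9% of all 32851 promoters, and CCAAT in 84.0% against 37.4%. The promoters of the 2 genes that DESeq2 called are shown because each holds 1 such element close to the start, with TTTGAA or its reverse complement in capitals (RefSeq, GRCm38.p6; Ube2c chr2:164769679-164769978, plus strand; Cdc20 chr4:118437294-118437593, minus strand).
Ube2c: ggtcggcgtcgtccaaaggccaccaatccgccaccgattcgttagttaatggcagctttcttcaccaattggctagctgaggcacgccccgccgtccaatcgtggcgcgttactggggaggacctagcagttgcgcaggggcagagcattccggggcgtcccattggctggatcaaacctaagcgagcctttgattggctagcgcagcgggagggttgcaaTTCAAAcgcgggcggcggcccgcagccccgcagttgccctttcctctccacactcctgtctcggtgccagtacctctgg
Cdc20: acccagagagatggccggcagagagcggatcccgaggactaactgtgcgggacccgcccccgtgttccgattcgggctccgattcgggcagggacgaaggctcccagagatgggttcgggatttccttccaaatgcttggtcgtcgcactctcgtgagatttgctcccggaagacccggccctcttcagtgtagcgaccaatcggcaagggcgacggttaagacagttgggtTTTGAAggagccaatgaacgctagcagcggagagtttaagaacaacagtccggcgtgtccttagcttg
The matches begin 29 bases (Ube2c) and 18 bases (Cdc20) before the start site. They describe the letters only, not binding. The shares count every listed gene with a promoter, changed or not, and lists of known targets hold their motif whatever the tumours did. They are therefore a property of the list and no result on the tumours. The same holds for the motif shares of the lists below.

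Subunits of the respiratory chain were lower as a group, but most of the shift went with gene length. Of 70 oxidative phosphorylation genes, 69 were below 0, with a median of -0.53, and 47 were lower without overlap (67.1%). That share was 10.5% over all genes and 19.99% in the shortest quartile of genes. DESeq2 called 6 of the 70 lower (1.83% of all genes): Ndufa11, Cox5b, Uqcr11, Atp5g1, Ndufa13 and Atp5o. Ndufa11, an accessory subunit of complex I, stood at 118, 71.7 and 83.4 CPM against 30.6, 29.6 and 34.7 CPM (log2 fold change -1.53 ± 0.25, edgeR adjusted p = 0.0585). Cox5b, a subunit of cytochrome c oxidase, stood at 280, 251 and 234 against 109, 85.8 and 103 CPM (-1.36 ± 0.25). The median member was 708 bases long, in the shortest quartile. With the length offset the list median was -0.18 and 52 of 70 were below 0. In non-tumour liver the median was 0.51, with 16 members higher without overlap (background 11.7%). Cytosolic ribosomal protein genes, which are as short (median 706.5 bases), had a median of -0.25 that turned to 0.09 with the length offset.

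Interferon-responsive genes were lower as a group. Of 36 tested, 33 were below 0, with a median of -0.54 (-0.48 with the length offset), and 9 were lower without overlap (25.0%, background 10.5%). DESeq2 called 4 of the 36, all of them lower (1.83% of all genes): Bst2, Psmb9, Psmb8 and B2m. Bst2, the membrane tether that holds budding viruses, stood at 313, 301 and 211 CPM against 89.3, 107 and 130 CPM (log2 fold change -1.33 ± 0.23, edgeR adjusted p = 0.0708). Psmb9 and Psmb8 encode inducible catalytic subunits of the immunoproteasome. Psmb9 stood at 75.7, 50.3 and 45.2 against 18.5, 18.6 and 29.4 CPM, and Psmb8 at 250, 123 and 129 against 32.6, 45.4 and 80.3 CPM. B2m, the light chain of class I histocompatibility molecules, stood at 3392, 3718 and 3179 against 2667, 2090 and 2273 CPM. In these 4 genes no DKO tumour reached an Atg7KO tumour. Without Atg7KO tumour 1, in which chromosome 17 with Psmb8 and Psmb9 stood high (below), the list median was -0.34.

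Markers of T and NK cells and of macrophages had medians below 0 but lay outside overlap less often than all genes did. The median of 14 T and NK cell markers was -0.60 (-0.49 with the length offset), 13 of 14 were below 0 and 1 was lower without overlap (7.14%, background 10.5%), and their summed level ran from 31.8 to 81.0 CPM in the Atg7KO tumours and from 31.6 to 49.5 CPM in the DKO tumours. Without Atg7KO tumour 3 that median was -0.26. The 2 with the lowest p overlapped: Cd8b1 stood at 7.08, 2.04 and 5.30 against 2.13, 2.46 and 3.13 CPM, and the kinase Lck at 7.76, 3.87 and 10.4 against 3.09, 4.51 and 5.85 CPM. Macrophage and Kupffer cell markers had a median of -0.20 (-0.09 with the length offset), with 0 of 19 outside overlap. That median turned to 0.26 without Atg7KO tumour 1 and to 0.16 without DKO tumour 1, and it was -0.49 without DKO tumour 2. None of the listed T and NK markers was at 0 in all 6 tumours. The part of these cells in the interferon result was not tested, and in bulk tissue fewer cells of a type and less RNA per cell cannot be told apart.

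The core of the interferon-stimulated response element (TTTC, any 2 bases, then TTTC again, on either strand) was found in 16 of 29 promoters of the list (55.2%) and in 3.4% of all promoters. The Bst2 promoter is shown because it holds 2 overlapping matches, in capitals, which begin 130 and 124 bases before the start (RefSeq, GRCm38.p6; chr8:71537423-71537722, minus strand).
Bst2: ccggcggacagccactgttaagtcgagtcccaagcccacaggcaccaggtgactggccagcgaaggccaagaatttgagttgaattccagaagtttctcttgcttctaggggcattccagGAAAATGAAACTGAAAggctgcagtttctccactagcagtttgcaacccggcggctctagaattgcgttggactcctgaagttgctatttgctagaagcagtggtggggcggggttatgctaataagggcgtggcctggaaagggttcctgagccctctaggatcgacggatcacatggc
No match lay in the Psmb9 promoter within this window.

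Targets of YAP, the transcriptional coactivator restrained by the Hippo kinases and active in liver growth and ductular cells, were higher as a group. Of 27 tested, 24 were above 0 (49.9% of all genes were), with a median of 0.66, and 11 were higher without overlap (40.7%, background 9.75%). DESeq2 called 6 of the 27 higher (1.71% of all genes), Myof, Ankrd1, Amotl2, Jag1, Arhgef17 and Tgfb2, and edgeR called 0. Myof, a membrane repair protein, stood at 17.4, 30.1 and 28.2 CPM against 179, 88.7 and 70.1 CPM (log2 fold change 2.16 ± 0.39, edgeR adjusted p = 0.0708). Ankrd1, a nuclear ankyrin repeat protein used as a YAP readout, stood at 2.26, 5.42 and 3.06 against 92.3, 16.02 and 29.7 CPM (3.68 ± 0.74). Both were highest in DKO tumour 1.

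Amotl2, an inhibitor of YAP that YAP induces, stood at 16.3, 19.8 and 19.8 against 106, 47.7 and 32.7 CPM, and the Notch ligand Jag1 at 3.88, 9.51 and 2.89 against 28.9, 13.03 and 14.0 CPM. Vgll3, a TEAD cofactor outside the list that was chosen after its values were seen, stood at 0.469, 0.986 and 0.860 against 37.3, 10.2 and 7.25 CPM (4.55 ± 0.75). The list median was 0.38 without DKO tumour 1 and 0.36 with the length offset, where 6 of 27 lay below 0. The median member was 4784 bases long, in the longest quartile, where 19.4% of all genes were higher without overlap. At an unadjusted edgeR p under 0.05, 16 members were higher as fitted and 9 with the length offset (1147 and 973 over all genes). In non-tumour liver the median was -0.36, with 7 members lower without overlap (background 12.2%).

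TEAD factors, which carry YAP to DNA, bind CATTCC. That motif, on either strand, was found in 9 of 20 promoters of the list (45.0%) and in 14.7% of all promoters. The Ankrd1 promoter is shown because it holds 2 matches, in capitals as the reverse complement, which begin 210 and 123 bases before the start (RefSeq, GRCm38.p6; chr19:36119795-36120094, minus strand).
Ankrd1: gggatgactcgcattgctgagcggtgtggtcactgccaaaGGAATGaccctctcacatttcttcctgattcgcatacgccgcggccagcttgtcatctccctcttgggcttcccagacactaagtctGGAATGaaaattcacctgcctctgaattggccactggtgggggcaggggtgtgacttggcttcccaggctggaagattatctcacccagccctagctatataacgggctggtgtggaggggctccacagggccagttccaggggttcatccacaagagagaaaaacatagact
The Myof promoter had no match in this window.

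Ductular and matrix genes were higher in the same tumours. Of 18 bile duct and ductular markers, 14 were above 0, with a median of 0.97 (1.12 with the length offset), and 5 were higher without overlap (27.8%, background 9.75%). Krt7, a keratin of duct cells, stood at 0.341, 2.18 and 0.963 CPM against 53.5, 4.37 and 10.3 CPM (log2 fold change 4.27 ± 0.98). Epcam, an adhesion protein of ducts and progenitors, stood at 0.853, 7.64 and 1.82 against 13.5, 8.25 and 17.1 CPM. The markers did not move as a block: the duct transcription factor Sox9 was lower, at 31.2, 52.0 and 37.4 against 28.2, 21.0 and 18.0 CPM, and Spp1 (osteopontin) overlapped, at 753, 6400 and 395 against 322, 1025 and 914 CPM. Krt19, another duct keratin, overlapped too, at 0.299, 4.26 and 1.20 against 2.04, 2.98 and 10.1 CPM. Atg7KO tumour 2 was the highest of its group in each of these 5 genes, and the list median was 1.97 without it.

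Matrix and collagen genes had a median of 0.73 (0.54 with the length offset), 25 of 28 above 0 and 7 higher without overlap (25.0%, background 9.75%). The median member was 5441.5 bases long, in the longest quartile, where 19.4% of all genes were higher without overlap. At an unadjusted edgeR p under 0.05, 9 members were higher as fitted and 3 with the length offset (1147 and 973 over all genes). The matrix protease Mmp7 stood at 1.41, 3.98 and 3.47 CPM against 9.81, 23.8 and 55.4 CPM (log2 fold change 3.32 ± 0.79), and fibronectin, Fn1, at 1163, 652 and 1203 against 2875, 2136 and 1368 CPM. The fibrillin gene Fbn1 stood at 2.77, 8.59 and 5.33 against 11.9, 14.8 and 14.8 CPM. These 3 genes were higher in every DKO tumour, while the collagen chain Col1a1 overlapped at 23.3, 63.5 and 39.0 against 48.6, 132 and 131 CPM. Stellate cell and myofibroblast markers had a median of 0.55 (0.56 with the length offset) and 13 of 18 above 0, but only 2 were higher without overlap, a share of 11.1% that is near the background of 9.75%. Their summed level was 428 to 596 CPM in the Atg7KO tumours and 513 to 1072 CPM in the DKO tumours. Pdgfra, a growth factor receptor of mesenchymal cells, stood at 5.16, 7.43 and 5.92 against 11.7, 17.3 and 17.2 CPM. Loxl2, a collagen cross-linking enzyme, went the other way and overlapped, at 25.8, 67.1 and 32.4 against 13.3, 32.8 and 16.5 CPM. The part of stellate cell number in the matrix result was not tested. In non-tumour liver the matrix median was -0.54.

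Detoxification genes under NRF2 were lower. Of 41 tested, 33 were below 0, with a median of -0.42 (-0.31 with the length offset), and 14 were lower without overlap (34.1%, background 10.5%). The median member was 1576 bases long, in the shortest quartile, where 19.99% of all genes were lower without overlap. At an unadjusted edgeR p under 0.05, 8 members were lower as fitted and 4 with the length offset (1166 and 979 over all genes). The median in non-tumour liver had the same direction, -0.34. Their summed level was 57350 to 64389 CPM in the Atg7KO tumours and 32987 to 43951 CPM in the DKO tumours. DESeq2 called 4 of the 41 lower (1.83% of all genes): Blvrb, Ftl1, Gstm4 and Gstm3. Nqo1, a quinone reductase, stood at 387, 389 and 414 CPM against 259, 107 and 172 CPM (log2 fold change -1.15 ± 0.42). Blvrb, a haem breakdown enzyme, stood at 506, 696 and 513 against 275, 261 and 311 CPM, and Ftl1, the ferritin light chain, at 6730, 9380 and 9014 against 3565, 4130 and 4772 CPM. Gstm3, a glutathione transferase with close paralogues, stood at 2842, 2692 and 4448 against 293, 595 and 1476 CPM. Each was lower in every DKO tumour. The mRNA of Sqstm1 overlapped, at 1085, 2032 and 935 against 852, 1051 and 770 CPM. The NRF2 element TGACNNNGC was found in 9 of 36 list promoters (25.0%) and in 12.4% of all.

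Among p53 targets, 6 of 24 were lower without overlap (25.0%, background 10.5%). Their median was -0.26 both as fitted and with the length offset, and -0.06 without Atg7KO tumour 2. Cdkn1a, which encodes the cell cycle inhibitor p21, stood at 158, 119 and 88.4 CPM against 40.1, 49.99 and 53.5 CPM (log2 fold change -1.35 ± 0.32, DESeq2 adjusted p = 0.0081). The pro-apoptotic genes Bbc3 and Bax stood at 15.1, 18.7 and 14.3 against 9.08, 9.71 and 6.41 CPM and at 56.9, 62.9 and 39.5 against 28.4, 30.5 and 30.4 CPM. All 3 were lower in every DKO tumour, so an inhibitor of division and genes of division were low in the same libraries. Gdf15, a stress-induced hormone, stood at 16.7, 39.0 and 16.3 against 4.19, 7.56 and 6.22 CPM.

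The growth hormone axis beyond Socs2 held 3 further genes above in every DKO tumour, Cish, Socs3 and Jak2. With Socs2, 4 of the 14 genes tested were higher without overlap (28.6%, background 9.75%). Cish, a second STAT5-induced inhibitor, stood at 9.47, 5.99 and 10.5 CPM against 22.3, 22.6 and 16.1 CPM (log2 fold change 1.23 ± 0.27), and it differed by 1.09 in non-tumour liver. Socs3, a feedback inhibitor of interleukin 6 signalling, stood at 11.6, 9.54 and 17.3 against 28.3, 36.4 and 23.1 CPM. The hormone product Igf1 overlapped, at 39.3, 131 and 77.9 against 123, 240 and 168 CPM. The list median over 14 genes was 0.30, but it was 0.14 with the length offset, where 7 of 14 lay below 0, and 0.09 without DKO tumour 2. Bcl6, a male-biased repressor in mouse liver, stood at 33.9, 28.7 and 34.2 against 12.3, 18.1 and 16.6 CPM, and it differed by -1.03 in non-tumour liver too. The 26 female-biased genes had a median of 0.56 (0.46 with the length offset), which was -0.17 without DKO tumour 2, 0.18 without Atg7KO tumour 1, 0.17 without DKO tumour 3 and 0.33 without Atg7KO tumour 3. The 21 male-biased genes had a median of -0.02 (0.22 with the length offset), which ran from -0.83 without DKO tumour 3 to 0.27 without Atg7KO tumour 2. In non-tumour liver the female-biased median was -1.05, with 7 of 26 lower without overlap (background 12.2%), and the male-biased median was 0.39. Neither list thus had a direction in tumours that held across libraries.

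**Figure D3:**
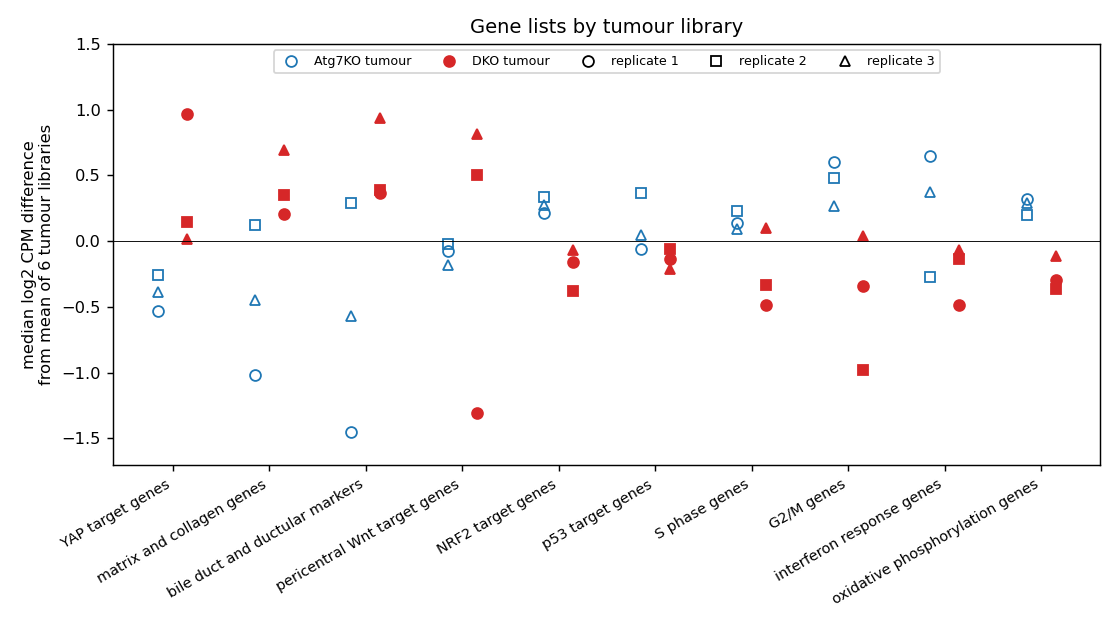
Median over the members of each of 10 gene lists of log2 CPM minus the mean of the 6 tumour libraries, for the Atg7KO tumours (open blue) and the DKO tumours (filled red), with the marker shape giving the replicate. Groups are separate for YAP targets, NRF2 targets, matrix, bile duct, G2/M and oxidative phosphorylation genes, and DKO tumour 1 lies far below the others for pericentral genes.

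Liver zone genes split the DKO tumours among themselves. Cyp2e1, a pericentral cytochrome, stood at 82.9, 254 and 98.5 CPM against 240, 2004 and 1623 CPM, and the glutamate transporter Slc1a2 at 2.13, 8.77 and 2.51 against 3.44, 87.4 and 34.6 CPM. Glul, glutamine synthetase, stood at 472, 242 and 277 against 220, 769 and 648 CPM. All 3 are pericentral targets of Wnt signalling, and all 3 were high in DKO tumours 2 and 3 and within the Atg7KO range or below it in DKO tumour 1. The list median of 0.42 (0.34 with the length offset) was 0.72 without DKO tumour 1 and 0.22 without DKO tumour 3. Of the 27 pericentral genes tested, 2 were higher (7.41%) and 1 lower (3.70%) without overlap, under the backgrounds of 9.75% and 10.5%. In non-tumour liver their median was -0.14, with 5 members lower without overlap and 1 higher. Afp, the fetal albumin relative, stood at 54.6, 33.7 and 13.9 against 2324, 197 and 289 CPM (log2 fold change 4.78 ± 1.20), high in every DKO tumour and highest in tumour 1. The periportal aldehyde dehydrogenase Aldh1b1 stood at 281, 386 and 262 against 33.5, 37.6 and 139 CPM. Meg3, an imprinted long RNA, stood at 22.4, 1.37 and 1.38 against 0.0582, 0.208 and 0.657 CPM. The oncofetal list had a median of -0.28 (-0.30 with the length offset), which was -0.04 without DKO tumour 3, -0.57 without Atg7KO tumour 2 and -0.46 without Atg7KO tumour 3 and turned to 0.30 without Atg7KO tumour 1. Acute phase genes had a median of 0.54 (0.64 with the length offset), which was -0.004 without DKO tumour 2 and 0.30 without Atg7KO tumour 2.

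Hepatocyte markers were present at high levels in every tumour, with a summed level of 34665 to 91320 CPM in the Atg7KO tumours and 70893 to 83075 CPM in the DKO tumours and a median log2 fold change of 0.15. That median was 0.34 with the length offset, 0.44 without Atg7KO tumour 1 and 0.05 without Atg7KO tumour 2. None was at 0, so the tumours carried the defining transcripts of liver tissue. Endothelial, B cell and neutrophil markers had medians of -0.00, -0.19 and -0.05 (-0.18, -0.14 and 0.08 with the length offset), with 1 endothelial gene higher and 1 lower without overlap and 0 in the B cell and neutrophil lists. Single libraries set these values: leaving out 1 tumour gave -0.56 to 0.80 for neutrophil markers (without Atg7KO tumours 2 and 3), -0.55 to -0.06 for B cell markers (the same tumours) and -0.11 to 0.06 for endothelial markers (without DKO tumours 2 and 1). The 4 haemoglobin genes listed were at 0 reads in all 6 tumours.

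**Figure D4:**
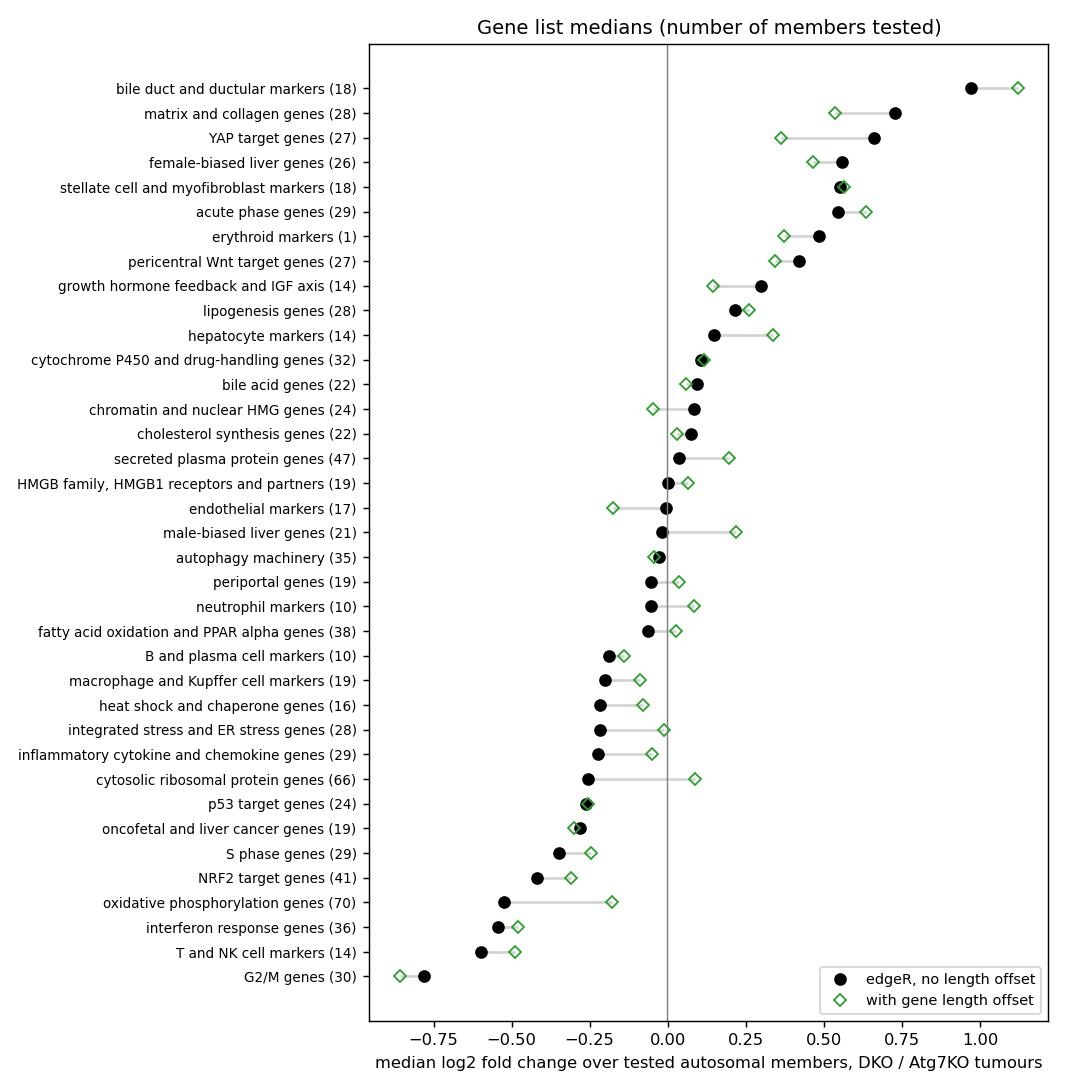
Median log2 fold change, DKO over Atg7KO tumours, over the tested members of each of the 37 gene lists (number in brackets), as fitted (black) and with the gene length offset (green), with a vertical line at the median of all genes. Oxidative phosphorylation moves from -0.53 to -0.18 and ribosomal protein genes from -0.25 to 0.09, while G2/M genes move from -0.78 to -0.86.

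Genes linked to the deleted proteins were outside overlap about as often as all genes, or less. Of 19 members of the HMGB family and its receptors and partners, 2 were higher and 2 lower without overlap, 10.5% each way against backgrounds of 9.75% and 10.5%. Their median of 0.00 (0.06 with the length offset) ran from -0.31 without DKO tumour 2 to 0.19 without Atg7KO tumour 3. Thrombomodulin, Thbd, which binds Hmgb1 and promotes its cleavage, stood at 8.02, 8.59 and 6.43 CPM against 17.7, 24.6 and 11.3 CPM (log2 fold change 1.22 ± 0.30, DESeq2 adjusted p = 0.013). The paralogue Hmgb2 overlapped, at 24.5, 24.3 and 27.5 against 14.7, 20.2 and 26.3 CPM. Of 35 autophagy genes, 1 was higher (2.86%) and 3 lower (8.57%) without overlap, with a median of -0.03 (-0.04 with the length offset). Atg12, a ubiquitin-like protein that Atg7 activates, stood at 156, 118 and 96.3 against 57.2, 60.5 and 84.0 CPM (-0.88 ± 0.23).

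Genes near the deleted loci were examined because linked alleles travel with a targeted gene. Within 5 Mb of Hmgb1, 65 genes were tested, 12 higher (18.5%) and 2 lower (3.08%) without overlap, with a median of 0.29. Over all of chromosome 5 the shares were 15.7% and 2.96% and the median 0.19, so the window was close to its chromosome, and both stood off the background of 9.75% and 10.5%. DESeq2 called 4 of the 65, all higher, Smurf1, Zkscan5, Urad and Pan3, and edgeR 0. Over all autosomal genes DESeq2 called 1.71% higher and 1.83% lower. Smurf1, a ubiquitin ligase of the BMP pathway, lies at 144876495 to 144965830 and differed by 0.99 ± 0.18. Within 5 Mb of Atg7, which both groups lacked, 71 genes had a median of 0.07. Of these, 4 were higher (5.63%) and 6 lower (8.45%) without overlap, shares under the background in both directions. DESeq2 called 3 of the 71, Syn2 and Timp4 lower and Mkrn2 higher. Timp4 overlapped between the groups, at 47.0, 0.0704 and 7.88 against 0.0291, 0.243 and 0.469 CPM. Syn2, a synaptic vesicle protein, lay 492 kb beyond Atg7 and differed by -3.77 ± 0.72.

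Whole chromosomes stood high or low in single tumours. The values are medians over the genes of a chromosome of log2 CPM minus the mean of the 6 non-tumour libraries. In those non-tumour libraries the medians ran from -0.13 to 0.13. In DKO tumour 1, chromosomes 16, 4 and 14 stood at -0.54, -0.51 and -0.48, chromosomes 11 and 12 at -0.36 and -0.26, and chromosome 13 at 0.27. In Atg7KO tumour 1, chromosomes 17 and 18 stood at 0.60 and 0.59, and chromosomes 14, 1 and 15 at 0.35, 0.35 and 0.29. Thus 6 of 19 autosomes in DKO tumour 1 and 5 in Atg7KO tumour 1 lay beyond 0.25 in either direction, against 1 in Atg7KO tumour 3 and 0 in Atg7KO tumour 2, DKO tumour 2 and DKO tumour 3. A copy number was not measured.

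These shifts reached the genotype contrast. Median log2 fold changes by chromosome ran from -0.26 on chromosome 14 and -0.22 on chromosome 17 to 0.24 on chromosome 13. Chromosome 17 came to 0.03 without Atg7KO tumour 1, chromosome 14 to -0.11 without Atg7KO tumour 1 and -0.13 without DKO tumour 1, and chromosome 16 from -0.12 to 0.01 without DKO tumour 1. Chromosome 13 kept 0.15 without DKO tumour 1 and 0.21 without Atg7KO tumour 3, and 24.3% of its 536 genes were higher without overlap. Not every difference rested on a single tumour. Against the non-tumour mean, chromosome 5 stood at -0.01, -0.14 and -0.10 in the Atg7KO tumours and 0.12, 0.03 and 0.09 in the DKO tumours. Its median log2 fold change of 0.19 ran from 0.15 to 0.23 over 23 alternative fits, and that of chromosome 9 (0.18) from 0.11 to 0.24. Of the genes whose tumour levels are given above, Psmb8, Psmb9, Ndufa11, Cdkn1a, H2-T10 and Epcam lie on chromosome 17. The first 4 of them, and Atg12 on chromosome 18, were highest in Atg7KO tumour 1, where those chromosomes stood high. Espn, Cdc20, Aldh1b1 and Lck lie on chromosome 4, Sftpd and Loxl2 on chromosome 14, and Prkdc, Vgll3 and Bcl6 on chromosome 16. Of these, Espn, Aldh1b1, Lck, Sftpd, Loxl2, Prkdc and Bcl6 were lowest of the DKO tumours in tumour 1, where those chromosomes stood low. Cox5b and Glul on chromosome 1 were highest of the Atg7KO tumours in tumour 1, and Col1a1 and Krt19 on chromosome 11 and Meg3 on chromosome 12 were lowest of the DKO tumours in tumour 1. Vgll3, Sftpd and Prkdc stood higher in DKO tumour 1 than in every Atg7KO tumour although their chromosomes stood low there. Sema3e, Sema3c, Vkorc1l1, Anapc7, Akap9 and Gcn1l1, all with higher levels in DKO tumours, lie on chromosome 5, as Hmgb1 does. On that chromosome 15.7% of 911 genes were higher and 2.96% lower without overlap. Hmgb1 itself and Spp1, also on chromosome 5, had log2 fold changes below 0. The part of the chromosome in these differences was not tested.

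**Figure D5:**
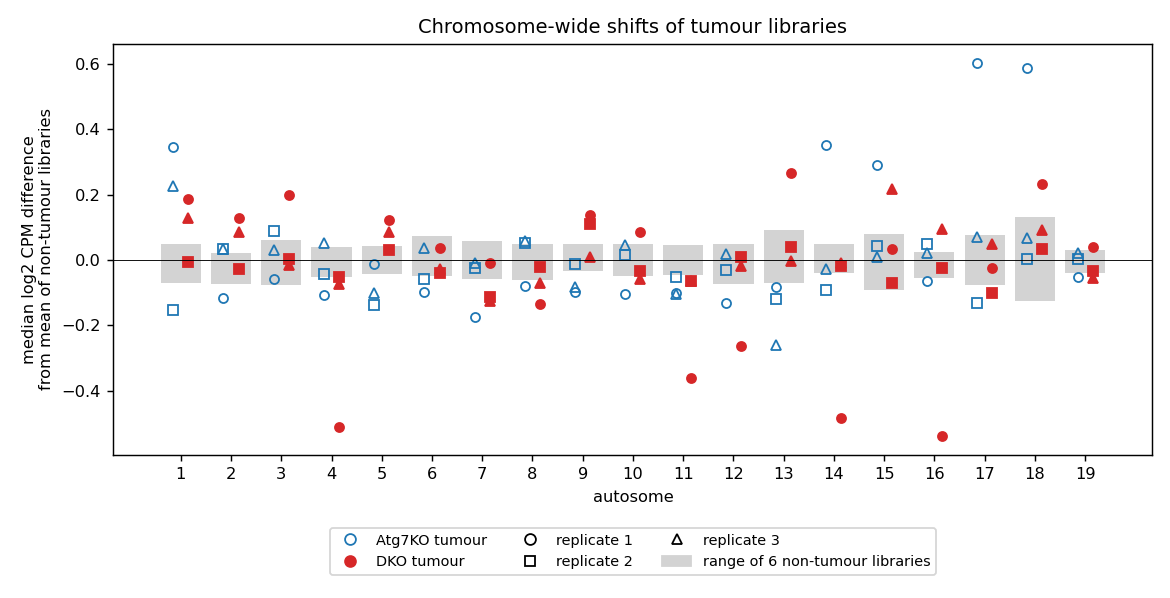
Median over the tested genes of each autosome of log2 CPM minus the mean of the 6 non-tumour libraries, for the Atg7KO tumours (open blue) and the DKO tumours (filled red), with grey bars for the range of the non-tumour libraries. Chromosomes 17 and 18 stand at 0.60 and 0.59 in Atg7KO tumour 1, and chromosomes 4, 14 and 16 at -0.51, -0.48 and -0.54 in DKO tumour 1.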

How the data were processed

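Total RNA of 12 liver libraries was sequenced, and the deposited values are raw counts of reads per RefSeq gene with mm10 coordinates. Per the submitters' processing notes, bcl2fastq, STAR 2.5.3a, featureCounts, Subread 1.5.3 and edgeR 3.20.8 were used. Strand setting, annotation release and library kit are not given in the sources used here, so overlapping genes on opposite strands, and close paralogues, can share reads. Of the names, 27 had become dates and were restored from RefSeq accessions.

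Genes were filtered with filterByExpr (minimum count 10, total 15), which left 14443. The edgeR 4.0.16 quasi-likelihood F test (TMM, robust, legacy deviances, two-sided, R 4.3.3) was fitted to all 12 libraries with 1 term per group, p was adjusted over all 14443 genes, and only autosomal genes are reported. The common biological coefficient of variation was 0.365. DESeq2 1.42.0 and limma 3.58.1 (voom) were alternatives. DESeq2 ran without the filter, gave an adjusted p to 14656 autosomal genes and left 4545 without one. Lists were described by counts and medians, with no set test. The scripts were tested on simulated data.

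The members, lists and tests were chosen with earlier results of these data known. Named were Atg7 and Hmgb1, and per direction 10 genes with at least 5 mean CPM in the higher group and no overlap between the groups, first edgeR calls, then genes called by both DESeq2 and voom, then by either, in order of edgeR p. Named too were the 2 list members with the lowest p (up to 3 where edgeR called any), DESeq2 calls within 5 Mb of either target, and the 5 genes with the lowest p for the difference between tissues. Other genes were named after their values were seen. Only some lists and list members are printed. A list member was left out and is not reported here. Replicate numbers did not pair the tumours across genotypes. The reference for chromosome medians, the non-tumour mean, was chosen after seeing the data in place of the mean of the 6 tumours. Figures used matplotlib 3.10.9.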

Additional observations from a re-analysis of the deposited data

Results flagged for a closer look

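Y-linked reads lie outside the autosomal comparison and gave a signal there. Reads of 4 Y-linked genes numbered 3571 in the DKO tumour library with the fewest and 4393 in the one with the most, against 0 to 2 in the Atg7KO tumours. They ran together with genotype in both tissues, and their part in the autosomal results was not tested. Of 464 X- and Y-linked genes tested, edgeR called 5 between the tumours.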

How the results depend on the processing

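Socs2 was called by edgeR and in every alternative run. The counts of genes called higher and lower were 3 and 4 with RLE factors, 250 and 268 with DESeq2, 10 and 20 with limma voom, 5 and 13 with non-legacy deviances, 2 and 5 without the filter, and 2 and 6 with the gene length offset. The 6 tumour libraries alone gave 2 lower, removing X and Y genes gave 0 lower, the replicate block gave 2 higher and 0 lower, and the replicate block with the length offset gave 2 higher. Leaving out 1 library gave 1 to 14 higher and 0 to 11 lower, with the highest counts without DKO tumour 3. The lower count was 0 without DKO tumour 2, 2 without Atg7KO tumour 3 or DKO non-tumour 1, 3 without Atg7KO tumour 1, DKO tumour 1 or DKO non-tumour 3, 4 without Atg7KO non-tumour 1, 5 without Atg7KO tumour 2 and 6 without Atg7KO non-tumour 2. Genes called higher numbered 5 without Atg7KO non-tumour 2 or DKO tumour 1 and 3 without DKO tumour 2. The difference between tissues gave 401 calls with DESeq2 and 1 with the replicate block. Replicate numbers did not pair tumours across the genotypes: deviations of same-numbered tumours correlated at -0.06, -0.12 and -0.01. Between tumour and non-tumour libraries of one genotype, same-numbered deviations correlated at 0.31 for Atg7KO number 3 and 0.33 for DKO number 2, and at 0.02 to 0.07 for the other numbers. Some tumour and non-tumour libraries may thus share a source, and the test of the difference between tissues treats all as independent.

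Some log2 fold changes of genes that no tool called changed sign, and the cause was not tested. With limma voom, Slc4a1 came to -0.51, Hspa1a to -0.22 and Spp1 to 0.20. The replicate block gave -0.012 for Retnlg and -0.17 for Slc4a1, and -0.38 for Slc4a1 with the length offset. Leaving out 1 library gave ranges of -0.14 to 0.75 for Atg7, -0.89 to 0.25 for Cxcr2, -0.32 to 0.88 for Retnlg, -2.08 to 1.37 for Slc4a1, -0.46 to 2.84 for Hspa1a and -2.25 to 0.41 for Spp1. Depth limits genes with few reads, such as Bglap3 in DKO tumours.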
